A study of Rattus norvegicus with 18 samples.

Results

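Adrenergic receptors of heart muscle cells and the proteins that carry or restrain their signals were followed as 8 genes, chosen by name: the alpha-1 receptor genes Adra1a, Adra1b and Adra1d, the beta-1 receptor gene Adrb1, the G protein gene Gnaq, the regulator genes Rgs2 and Rgs4, and the arrestin gene Arrb1. The choice was made with earlier results of these data known. All 8 were found among the 19880 genes of the deposited table. They were measured by RNA sequencing in primary cardiomyocytes of Sprague-Dawley rat ventricles (postnatal day 2), after 20 µM phenylephrine for 24 h. The 18 libraries form 6 groups of 3: cells infected with ad-sORF6, ad-sORF7 or ad-sORF8, each an adenovirus with a short open reading frame (sORF), and cells infected with the control virus for each of them. Phenylephrine was present in all 6 groups, the controls included, so the groups differ by virus and none is unstimulated. Every sORF virus was set against its own control, to find which of the 8 transcripts it changed in stimulated cells.

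The labels name neither the sequence of an sORF, nor the promoter that drives it, nor the amount of virus. Non-cardiomyocytes had been reduced by a plating step of 1 h before culture, per the labels' protocols, so some other cells can remain. Separate cultures are not stated for the libraries of a group, so p-values reflect the spread among libraries alone, and that spread may be technical. In bulk RNA, fewer cells of a type and less RNA per cell cannot be told apart. Total counts were 15697177 to 17658137 per library, and 14870 genes, all 8 members among them, passed the filter on low counts. Cardiomyocyte transcripts were abundant, with Tnnt2, cardiac troponin T, at 3226.54 FPKM or more in each library. Fibroblast transcripts were present too, with the collagen gene Col1a1 at 827.15 FPKM or more in each library. Which cells the 8 transcripts came from was not tested. FPKM, the authors' values, scale fragments to transcript length and library size, and serve to compare levels between genes. Normalised CPM scale estimated counts to an adjusted library size, and serve to compare groups within a gene.

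As background, phenylephrine acts on alpha-1 adrenergic receptors, whose main partner in cardiomyocytes is the G protein Gq. Gq activates phospholipase C-beta, and the resulting calcium and protein kinase C signals drive hypertrophic growth. The beta-1 receptor couples to Gs instead, raises cyclic AMP through adenylyl cyclase, and is the main receptor by which noradrenaline strengthens the heartbeat. RGS proteins shorten G protein signals by speeding GTP hydrolysis, and beta-arrestins uncouple and internalise receptors that have been activated.

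Levels differed widely between the genes on the per-length scale. Rgs2, whose protein is selective for Gq among G proteins, was the most abundant of the 8, with a median of 86.04 FPKM over 18 libraries (lowest 54.65, highest 141.51), above 95.5% of all genes by mean FPKM. Adra1a led the receptors with a median of 19.01 FPKM (12.52 to 25.21), followed by Adrb1 at 11.54 (8.25 to 14.9) and Adra1b at 7.005 (5.59 to 9.23). Gnaq, which encodes the alpha subunit of Gq, had a median of 13.36 FPKM (11.92 to 17.14), and Arrb1, which encodes beta-arrestin 1, one of 13.03 (10.24 to 14.95). Rgs4, whose protein acts on Gq and Gi, was low at 3.12 FPKM (2.29 to 4.04). Adra1d was the lowest of the 8 at 2.2 FPKM (0.79 to 3.36), and it also had the widest range, its highest library being 4.25 times its lowest.

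**Figure D1:**
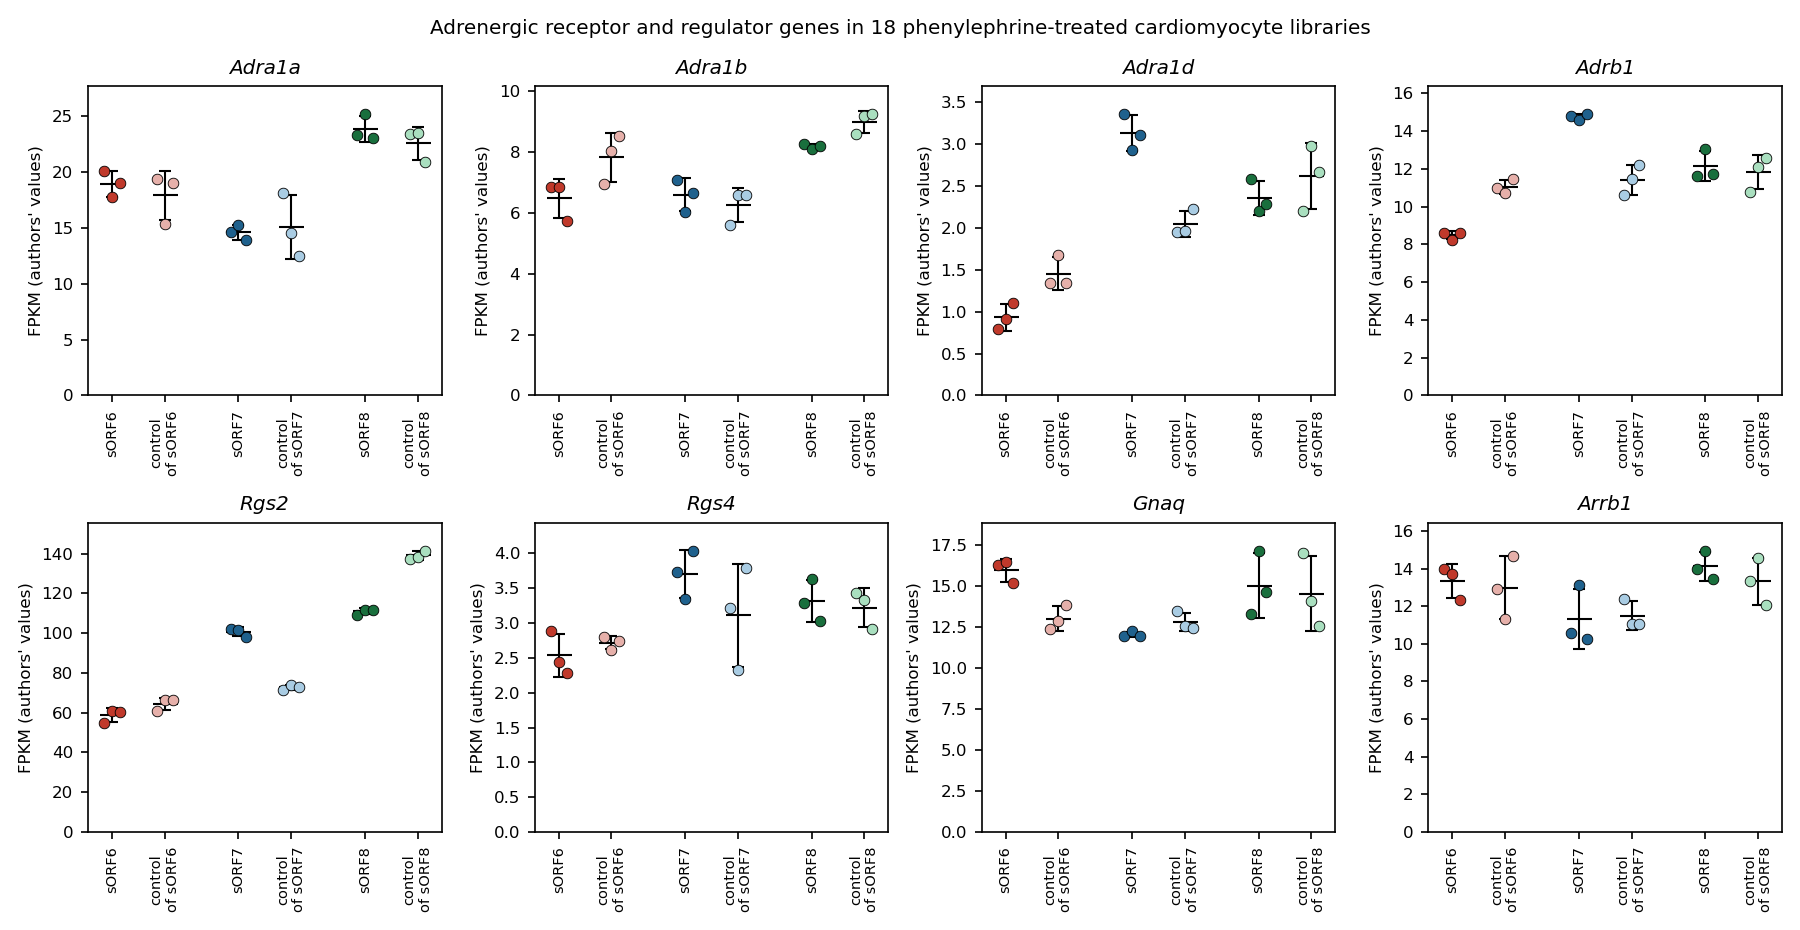
FPKM (authors' values, vertical axes from 0) of the 8 genes in each library. Points are libraries, horizontal bars the mean and whiskers 1 SD of 3 libraries, and each sORF virus stands left of its control virus. Adra1d and Adrb1 lie below their controls with sORF6 and above them with sORF7, and Rgs2 lies above its control with sORF7 and below it with sORF8.

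Adra1d and Adrb1 were lower with the sORF6 virus and higher with the sORF7 virus, and Rgs2 was higher with sORF7 and lower with sORF8. Genes were called at an adjusted p under 0.05 (edgeR quasi-likelihood F test, Benjamini-Hochberg over all genes). On that rule, 2 of the 8 members fell and 0 rose with sORF6, where 3.85% of all genes tested were called (2.88% lower, 0.968% higher). With sORF7, 3 of the 8 rose and 0 fell, where 7.77% of all genes were called (4.12% higher, 3.66% lower). With sORF8, 1 of the 8 fell and 0 rose, where 3.75% of all genes were called (1.72% lower, 2.03% higher). Because the members were chosen with earlier results of these data known, setting their counts beside these shares is not an independent test. The median log2 fold change of the 8 members was -0.11 with sORF6, 0.14 with sORF7 and 0.05 with sORF8, while the median of all genes tested was 0.00 in each. At an unadjusted p under 0.05, 5, 4 and 1 members passed with sORF6, sORF7 and sORF8, as did 15.2%, 20.0% and 16.6% of all genes. DESeq2 called 2, 3 and 1 members, and 3.95%, 7.79% and 5.69% of the genes to which it gave an adjusted p.

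**Figure D2:**
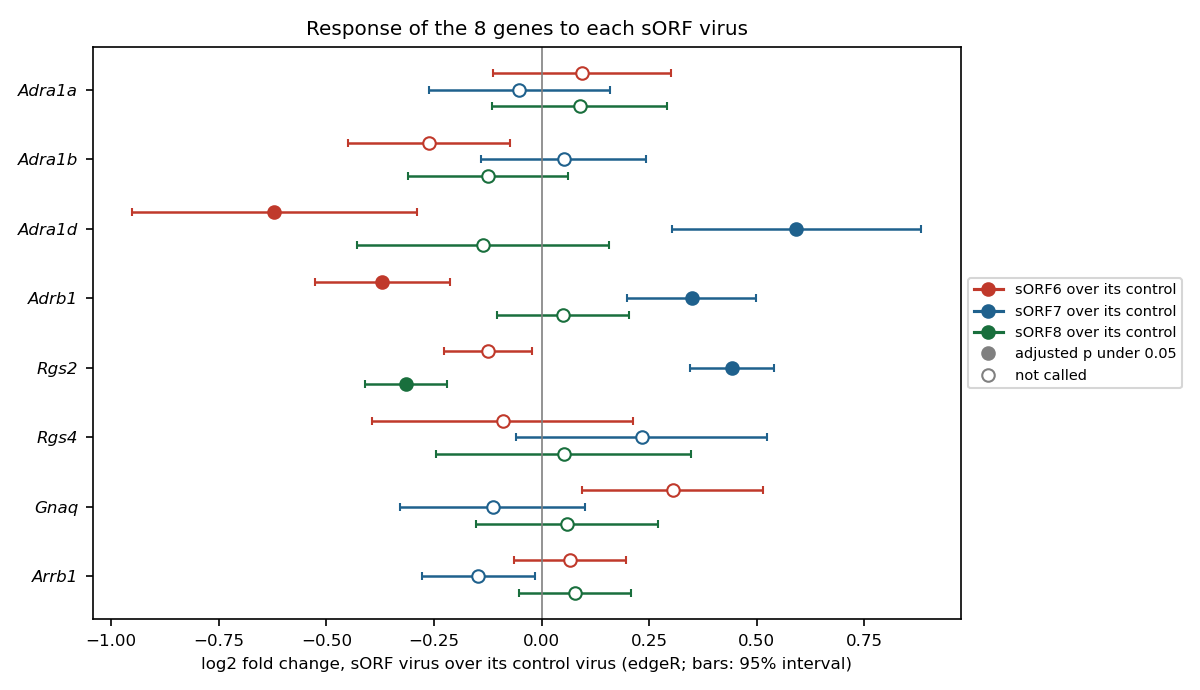
Log2 fold change of each gene (horizontal axis) for each sORF virus over its own control virus, with 95% intervals from the edgeR fit of 18 libraries. Filled points have an adjusted p under 0.05: Adra1d and Adrb1 left of 0 with sORF6 and right of 0 with sORF7, and Rgs2 right of 0 with sORF7 and left of 0 with sORF8.

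The start regions of the 3 genes that changed are shown because the genes moved in part together. They are RefSeq windows of build GRCr8, 300 bases each (250 before the annotated start and 50 after it), printed 5′ to 3′ on the gene's strand. Capitals mark the cyclic AMP response element half-site TGACG and the GC box GGGCGG, on either strand.
Adra1d, chr3:139262282-139262581, minus strand: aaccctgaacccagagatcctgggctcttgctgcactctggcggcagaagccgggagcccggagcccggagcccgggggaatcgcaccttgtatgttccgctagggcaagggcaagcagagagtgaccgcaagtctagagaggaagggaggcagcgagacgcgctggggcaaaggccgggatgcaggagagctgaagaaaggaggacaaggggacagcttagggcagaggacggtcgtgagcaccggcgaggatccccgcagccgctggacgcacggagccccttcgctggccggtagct
Adrb1, chr1:265776853-265777152, plus strand: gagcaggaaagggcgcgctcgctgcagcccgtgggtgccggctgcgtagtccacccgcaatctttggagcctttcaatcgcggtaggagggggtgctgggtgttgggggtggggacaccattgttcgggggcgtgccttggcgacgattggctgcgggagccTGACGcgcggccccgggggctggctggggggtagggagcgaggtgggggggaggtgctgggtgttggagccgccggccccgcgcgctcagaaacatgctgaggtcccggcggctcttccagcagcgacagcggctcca
Rgs2, chr13:58352617-58352916, minus strand: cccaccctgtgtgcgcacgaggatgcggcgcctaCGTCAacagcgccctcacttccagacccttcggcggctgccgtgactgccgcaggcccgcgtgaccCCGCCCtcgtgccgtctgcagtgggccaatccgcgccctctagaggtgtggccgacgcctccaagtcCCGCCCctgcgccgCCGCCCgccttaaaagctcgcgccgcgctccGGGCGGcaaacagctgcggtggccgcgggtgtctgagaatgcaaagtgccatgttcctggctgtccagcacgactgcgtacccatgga

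Motif matches differed between the windows. Adra1d held neither TGACG nor GGGCGG, and Adrb1 held 1 TGACG, at -88 from the annotated start. Rgs2 held 1 TGACG at -216 and 4 copies of GGGCGG, at -150, -83, -69 and -38. The motifs were also present beside members called in no comparison of an sORF virus with its control. Rgs4 held 1 TGACG at -153, Gnaq 1 TGACG at -28 and 2 copies of GGGCGG, and Adra1b 1 GGGCGG. Of 33465 start windows of the same length, 21.2% held TGACG and 33.1% held GGGCGG on either strand. The full element TGACGTCA (1.83% of windows), TATAAA (14.2%) and TGACTCA (4.63%) had no match in the 3 windows, searched on both strands. GC content was 65.7% for Adra1d, 70.7% for Adrb1 and 69.7% for Rgs2, against a median of 51.7% over all windows. A match is a run of letters, not evidence of binding, and RefSeq windows were used for 6 of the 8 members, without Adra1a and Arrb1. Positions of genes below are those of the deposited table, in build Rnor_6.0.

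Adra1d encodes the alpha-1D receptor, which in rodents is best known from vascular smooth muscle (gene 29413, chromosome 3, 124129558 to 124145566, minus strand). It had 0.79, 0.91 and 1.11 FPKM in the sORF6 libraries, against 1.34, 1.68 and 1.34 in their controls. All 3 sORF6 libraries lay below all 3 controls. Its level was 2.83 ± 0.486 normalised CPM with sORF6 and 4.35 ± 0.597 in the control (SD, n = 3 each), a log2 fold change of -0.62 ± 0.16 (SE, 1.54-fold lower), with an edgeR adjusted p of 0.0301. That call ended without sORF6 replicate 1 (edgeR adjusted p = 0.172), sORF6 replicate 2 (0.101) or control replicate 2 (0.136), and in a fit of only these 6 libraries (0.197).

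With sORF7 the same gene went the other way, at 3.36, 2.93 and 3.11 FPKM in the sORF7 libraries, against 1.95, 1.96 and 2.23 in their controls. The groups again did not overlap, now with each sORF7 library above each control. Adra1d rose 1.51-fold, with a log2 fold change of 0.59 ± 0.14 and an edgeR adjusted p of 0.0116, and without sORF7 replicate 1 that p was 0.0593. With sORF8 it had 2.59, 2.2 and 2.29 FPKM, against 2.2, 2.98 and 2.67 in the controls. These groups overlapped, and the log2 fold change was -0.14 (95% interval -0.43 to 0.16, edgeR adjusted p = 0.699). Counts behind Adra1d were the smallest of the 8, at 41 to 176 per library.

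The other alpha-1 receptors are those usually described in rodent cardiomyocytes, and neither passed the test in any of the 3 comparisons. Adra1a encodes the alpha-1A receptor (gene 29412, chromosome 15, 43296997 to 43398314, plus strand). It averaged 19.0 ± 1.18 FPKM with sORF6 and 17.9 ± 2.19 in its control (SD, n = 3 each), a log2 fold change of 0.09 (95% interval -0.11 to 0.30, edgeR adjusted p = 0.725). With sORF7 it averaged 14.6 ± 0.650 FPKM, against 15.1 ± 2.86 in the control, and with sORF8 23.9 ± 1.15, against 22.6 ± 1.48. Each pair of groups overlapped, and the log2 fold changes for sORF7 and sORF8 were -0.05 (-0.26 to 0.16, edgeR adjusted p = 0.839) and 0.09 (-0.12 to 0.29, 0.716).

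Adra1b encodes the alpha-1B receptor (gene 24173, chromosome 10, 29392762 to 29450644, minus strand). It had 6.84, 6.84 and 5.73 FPKM with sORF6, against 6.93, 8.01 and 8.51 in the controls, so the groups did not overlap, with the highest sORF6 library just under the lowest control. Its log2 fold change of -0.26 ± 0.09 had an unadjusted p of 0.00925 and an edgeR adjusted p of 0.138, and did not pass. With sORF8 the groups were also apart, at 8.24, 8.1 and 8.19 FPKM against 8.57, 9.16 and 9.23, with a log2 fold change of -0.13 (95% interval -0.31 to 0.06, edgeR adjusted p = 0.525). With sORF7 they overlapped, at 6.58 ± 0.538 FPKM and 6.24 ± 0.566 in the control, and the log2 fold change was 0.05 (-0.14 to 0.24, edgeR adjusted p = 0.821). Groups without overlap were found for 4 members with sORF6, 4 with sORF7 and 2 with sORF8, while 20.6%, 23.1% and 24.5% of all genes tested had none.

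Set against each other per length, the 3 alpha-1 genes had sums that overlapped in each pair of groups, while the share of Adra1d did not overlap with sORF6 and sORF7. The summed level was 26.4 ± 1.21 FPKM with sORF6 and 27.2 ± 1.92 in its control, 24.3 ± 0.695 with sORF7 and 23.4 ± 2.21 in its control, and 34.4 ± 0.986 with sORF8 and 34.2 ± 1.41 in its control (SD, n = 3 each). Adra1a held most of the sum in every group, from a mean of 60.1% with sORF7 to 71.9% with sORF6. Adra1d held 3.57% ± 0.725 of the sum with sORF6 and 5.39% ± 1.13 in the control, without overlap (highest 4.30% with sORF6, lowest 4.64% in the control). It held 12.9% ± 0.675 with sORF7 and 8.85% ± 1.47 in the control, again without overlap, and 6.87% ± 0.694 with sORF8 and 7.64% ± 1.06 in the control, with overlap. These shares restate the Adra1d levels on another scale and were not tested.

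**Figure D3:**
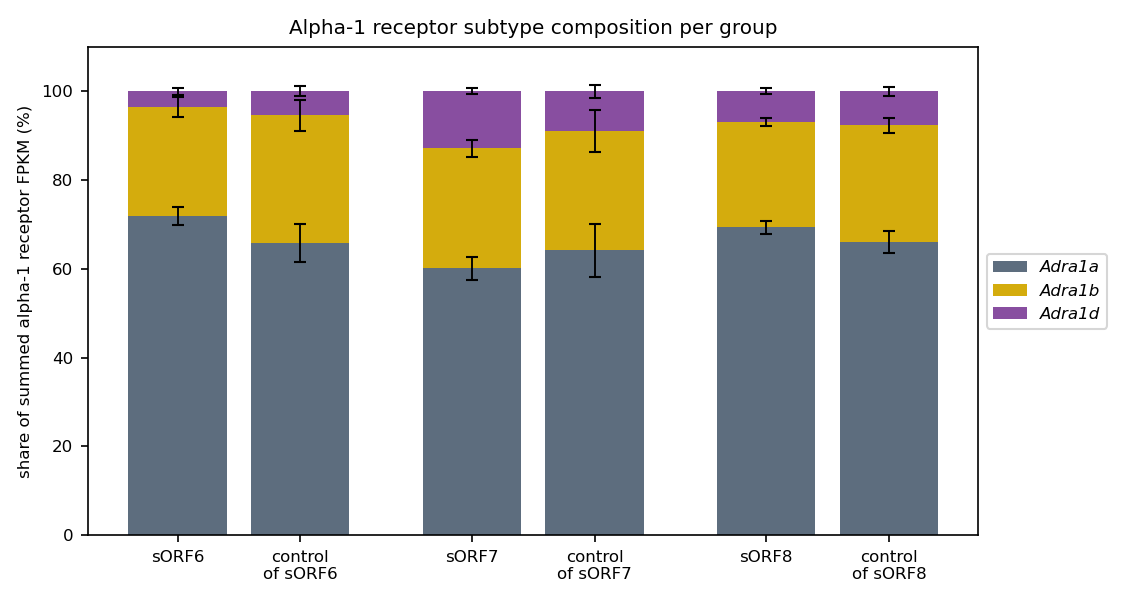
Share of the summed FPKM of the 3 alpha-1 receptor genes (vertical axis, %) held by each, as stacked means of 3 libraries per group. Whiskers are 1 SD of the share whose upper edge they sit on. The Adra1d segment is thinnest with sORF6 (3.57%) and thickest with sORF7 (12.9%).

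Adrb1 encodes the beta-1 receptor (gene 24925, chromosome 1, 277537585 to 277538985, plus strand). With sORF6 it had 8.63, 8.25 and 8.6 FPKM, against 10.98, 10.72 and 11.46 in the controls. The sORF6 libraries agreed closely and all lay below the controls. The level was 12.01 ± 0.286 normalised CPM with sORF6 and 15.5 ± 0.473 in the control (SD, n = 3 each), a log2 fold change of -0.37 ± 0.07 (1.29-fold lower), with an edgeR adjusted p of 0.00544. With sORF7 it had 14.79, 14.58 and 14.9 FPKM, against 10.61, 11.44 and 12.18 in the controls. All 3 sORF7 libraries lay above all 3 controls, and Adrb1 rose 1.27-fold, with a log2 fold change of 0.35 ± 0.07 and an edgeR adjusted p of 0.00435. Both calls held in each of the 6 fits with 1 library left out, with edgeR adjusted p of at most 0.0312 for sORF6 and 0.0244 for sORF7. With sORF8 it had 11.62, 13.06 and 11.74 FPKM, against 10.8, 12.11 and 12.56, and the groups overlapped. The log2 fold change there was 0.05 (95% interval -0.10 to 0.20, edgeR adjusted p = 0.802).

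Per 100 FPKM of summed alpha-1 receptor, Adrb1 stood at 32.2 ± 1.1 FPKM with sORF6 and 40.7 ± 1.73 in its control, without overlap. The ratio was 60.7 ± 1.97 with sORF7 and 49.3 ± 7.93 in its control, where the lowest sORF7 library (58.95) lay just above the highest control (57.13). It was 35.2 ± 1.4 with sORF8 and 34.6 ± 3.41 in its control (SD, n = 3 each), with overlap. As the alpha-1 sums overlapped in each pair, these ratios largely restate the Adrb1 levels on another scale, and they were not tested.

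Gnaq encodes a G protein subunit through which alpha-1 receptors signal (gene 81666, chromosome 1, 233382491 to 233622584, plus strand). It had 16.24, 16.46 and 15.16 FPKM with sORF6, against 12.37, 12.83 and 13.81 in the controls. The sORF6 libraries all lay above the controls, but the log2 fold change of 0.30 ± 0.10 had an unadjusted p of 0.00685 and an edgeR adjusted p of 0.116, and did not pass. With sORF7 it had 11.92, 12.22 and 11.94 FPKM, against 13.45, 12.57 and 12.43, below the controls without overlap, and the log2 fold change was -0.11 (95% interval -0.33 to 0.10, edgeR adjusted p = 0.604). With sORF8 the means were 15 ± 1.96 and, in the control, 14.5 ± 2.27 FPKM, with overlap and a log2 fold change of 0.06 (-0.15 to 0.27, edgeR adjusted p = 0.835). The estimated counts of Gnaq were not whole numbers in any of the 18 libraries, with 246.26 the farthest from one. Whether reads were split with another gene, such as its close paralog Gna11, was not tested, and the values of Gnaq carry that uncertainty. Gna11 had a mean of 21.8 FPKM over the 18 libraries. Its log2 fold changes were -0.19, -0.03 and 0.01 with sORF6, sORF7 and sORF8 (edgeR adjusted p = 0.11, 0.86 and 0.965). With sORF6 the sign was opposite to that of Gnaq, and with the other viruses it was the same.

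Rgs2 changed with the smallest p of the 8 genes (gene 84583, chromosome 13, 60803578 to 60849080, minus strand). With sORF7 it had 102.29, 101.59 and 98.07 FPKM, against 71.53, 74.02 and 73.16 in the controls. The 3 sORF7 libraries lay far above the controls, with little spread in either group. The level was 66.0 ± 1.60 normalised CPM with sORF7 and 48.5 ± 1.14 in the control (SD, n = 3 each), a log2 fold change of 0.44 ± 0.05 (1.36-fold higher), with an edgeR adjusted p of 1.45e-05.

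With sORF8 the gene fell, at 109.28, 111.86 and 111.89 FPKM, against 137.24, 138.48 and 141.51 in the controls. No sORF8 library reached the lowest control. The level was 72.7 ± 0.991 normalised CPM with sORF8 and 90.4 ± 1.5 in the control (SD, n = 3 each), a log2 fold change of -0.31 ± 0.05 (1.24-fold lower), with an edgeR adjusted p of 0.000391. With sORF6 it had 54.65, 61.03 and 60.41 FPKM, against 60.87, 66.31 and 66.15, and 1 control library lay within the sORF6 range. The log2 fold change of -0.12 ± 0.05 had an unadjusted p of 0.0196 and an edgeR adjusted p of 0.206, and did not pass. Both calls of Rgs2 held in each fit with 1 library left out, with edgeR adjusted p of at most 0.000176 for sORF7 and 0.00392 for sORF8.

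Rgs4 passed in no comparison (gene 29480, chromosome 13, 88054817 to 88061108, minus strand). It averaged 2.54 ± 0.307 FPKM with sORF6 and 2.72 ± 0.0917 in its control, 3.71 ± 0.346 with sORF7 and 3.11 ± 0.735 in its control, and 3.32 ± 0.301 with sORF8 and 3.22 ± 0.276 in its control (SD, n = 3 each). Groups overlapped in each pair, and the lowest and highest control of sORF7 were 2.33 and 3.79 FPKM. The log2 fold changes were -0.09 (95% interval -0.39 to 0.21), 0.23 (-0.06 to 0.52) and 0.05 (-0.25 to 0.35), with edgeR adjusted p of 0.834, 0.386 and 0.904. The interval for sORF7 includes the value of 0.44 that Rgs2 showed with the same virus.

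Arrb1 also passed in none (gene 25387, chromosome 1, 164501725 to 164591881, plus strand). It averaged 90.6 ± 3.57 normalised CPM with sORF6 and 86.6 ± 6.82 in its control, 72.6 ± 5.26 with sORF7 and 80.3 ± 4.90 in its control, and 93.4 ± 1.4 with sORF8 and 88.5 ± 4.01 in its control (SD, n = 3 each). Each pair of groups overlapped. The log2 fold changes were 0.07 (95% interval -0.06 to 0.20), -0.15 (-0.28 to -0.02) and 0.08 (-0.05 to 0.21), with edgeR adjusted p of 0.682, 0.189 and 0.587. The intervals are not adjusted for the number of genes tested, and for sORF7 the unadjusted edgeR p was 0.0305. Its effective length in the table ran from 5964 to 7093 bases over 15 transcripts, so its FPKM also moves with the transcript mix.

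Whether the viruses differed in their effect was tested as the difference of their log2 fold changes. Between sORF6 and sORF7, 3 of 8 members differed, where 11.2% of all genes did (4.88% with the higher and 6.27% with the lower value for sORF6): Adra1d by -1.21 ± 0.21 (edgeR adjusted p = 0.000605), Adrb1 by -0.72 ± 0.10 (8.76e-05) and Rgs2 by -0.57 ± 0.07 (1.01e-05). All 3 values are lower for sORF6, and each kept its call in the 12 fits with 1 library left out. Genes called both lower with sORF6 and higher with sORF7 made up 1.63% of those tested (243 genes), and Adra1d and Adrb1 were among them.

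Between sORF7 and sORF8, 2 of 8 members differed, where 7.72% of all genes did (3.80% with the higher and 3.92% with the lower value for sORF7). Rgs2 differed by 0.76 ± 0.07 (edgeR adjusted p = 6.18e-07), and Adra1d by 0.73 ± 0.20 (0.0279). Rgs2 was 1 of 54 genes (0.363% of those tested) called both higher with sORF7 and lower with sORF8. For Adra1d, the edgeR adjusted p of this difference was above the threshold in 7 of the 12 fits with 1 library left out. Those left out sORF7 replicate 1 (0.0751), sORF7 control replicate 1 (0.0534) or 2 (0.0611), sORF8 replicate 2 (0.0727) or 3 (0.0594), or sORF8 control replicate 2 (0.0809) or 3 (0.0526). Adrb1 differed by 0.30 ± 0.10 and did not pass (edgeR adjusted p = 0.0828), although it did without sORF8 control replicate 1 (0.0402) and with limma on log2(FPKM + 1) (0.0386).

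Between sORF6 and sORF8, 1 of 8 members differed, where 3.69% of all genes did (0.868% with the higher and 2.82% with the lower value for sORF6). That was Adrb1, by -0.42 ± 0.10 (edgeR adjusted p = 0.0277), with DESeq2 at 0.111. The edgeR call ended without sORF6 replicate 1 (0.0513), 2 (0.0702) or 3 (0.0554), sORF6 control replicate 1 (0.0549) or 3 (0.0642), sORF8 replicate 2 (0.0904) or sORF8 control replicate 1 (0.0767). Adra1d (-0.48 ± 0.21, edgeR adjusted p = 0.276) and Rgs2 (0.19 ± 0.07, 0.148) did not pass. Adra1a, Adra1b, Rgs4, Gnaq and Arrb1 passed in none of the 3 tests of a difference. The nearest to the threshold was Gnaq between sORF6 and sORF7 (0.42 ± 0.14, edgeR adjusted p = 0.0704, and 0.0214 in a fit of only those 12 libraries), and Arrb1 for the same pair (0.21 ± 0.09, 0.137) passed without sORF6 control replicate 3 (0.0498).

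The control groups, each infected with a control virus, were themselves unlike for some of these genes. A joint edgeR F test over the 3 controls called 4 of the 8 members, where it called 38.4% of all genes. Rgs2 averaged 64.4 ± 3.10 FPKM in the sORF6 control, 72.9 ± 1.26 in the sORF7 control and 139 ± 2.20 in the sORF8 control (SD, n = 3 each, adjusted p = 3.75e-12). Adra1a was also highest in the sORF8 control (22.6 ± 1.48 FPKM, edgeR adjusted p = 0.000573), as was Adra1b (8.99 ± 0.363, 0.000745) and Adra1d (2.62 ± 0.393, 0.000618). Adrb1 was close to level, at 11.1 ± 0.375, 11.4 ± 0.785 and 11.8 ± 0.914 FPKM (edgeR adjusted p = 0.793). Rgs4 (0.434), Gnaq (0.464) and Arrb1 (0.175, and 0.0477 without sORF7 control replicate 1) did not pass either. Experiment and virus stock cannot be told apart here, so levels set across the 3 experiments carry this difference.

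In the order of the 6 group means, sORF8 libraries and their controls were at the top for Adra1a, Adra1b and Rgs2. For Rgs2 the order in FPKM was sORF8 control, sORF8, sORF7, sORF7 control, sORF6 control and sORF6, and only the last pair of neighbours overlapped. For Adrb1 the sORF7 group stood above and the sORF6 group below the other 4 groups, which overlapped with their neighbours. For Adra1d the sORF7 group was highest, but its lowest library (2.93 FPKM) was below the highest sORF8 control (2.98). All 5 neighbouring pairs overlapped for Rgs4 and for Arrb1. Over the 8 genes, 29 of 40 neighbouring pairs overlapped in FPKM and 28 in normalised CPM.

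In the authors' deposited table, a q-value under 0.05 stands beside 6 members for sORF6, 5 for sORF7 and 2 for sORF8, and beside 21.9%, 27.4% and 22.7% of all genes that have a q-value there. In that table Adra1b (log2 fold change -0.27, q = 0.000453) and Gnaq (0.29, q = 0.000458) are among the 6, and Rgs4 (0.25, q = 0.0196) and Arrb1 (-0.12, q = 0.000855) among the 5. The directions of the calls reported above for Adra1d, Adrb1 and Rgs2 are the same in the authors' deposited table, with log2 fold changes of -0.63 and 0.62 for Adra1d with sORF6 and sORF7, -0.38 and 0.37 for Adrb1, and 0.47 and -0.33 for Rgs2 with sORF7 and sORF8.

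The wider pathway was described by 7 lists of other genes, 125 in the table and 108 tested, also chosen with earlier results of these data known. With sORF6, 0 rose and 2 fell, with sORF7 4 rose and 6 fell, and with sORF8 3 rose and 1 fell (edgeR), beside 3.85%, 7.77% and 3.75% of all genes called in either direction. At an unadjusted p under 0.05, 14, 23 and 23 of the 108 passed (15.2%, 20.0% and 16.6% of all genes), and DESeq2 called 2, 11 and 5 (3.95%, 7.79% and 5.69%). The median log2 fold change of the 108 was 0.02, -0.01 and 0.02, beside 0.00 for all genes. Receptor kinases and beta-arrestin 2, which switch receptors off, had 0 of 6 called by edgeR or DESeq2 in each comparison, though with sORF8 4 of the 6 had an unadjusted p under 0.05. Grk2, the gene of the best known receptor kinase of heart muscle, had log2 fold changes of 0.01, 0.03 and -0.13 (edgeR adjusted p = 0.978, 0.81 and 0.226 with sORF6, sORF7 and sORF8). Of the phospholipase C-beta genes, Plcb4 had the highest mean level at 35.4 FPKM, and it did not pass in any comparison.

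Among other adrenergic receptors, 3 of 5 were tested. Adra2a, the alpha-2A receptor gene whose product couples to Gi, rose with sORF7, at 5.79 ± 0.289 normalised CPM against 3.57 ± 0.306 in the control (log2 fold change 0.70 ± 0.16, edgeR adjusted p = 0.00978). Of 7 tested genes of catecholamine synthesis, uptake and breakdown, Maoa, which encodes the monoamine oxidase that degrades noradrenaline, rose with sORF7 and fell with sORF8, as Rgs2 did. It stood with sORF7 at 74.7 ± 2.74 normalised CPM against 50.7 ± 2.34 in the control (log2 fold change 0.56 ± 0.05, edgeR adjusted p = 4.18e-06), and with sORF8 at 68.5 ± 2.26 against 82.3 ± 0.283 (-0.27 ± 0.05, 0.00414). Adra2a and Maoa kept these calls in each fit with 1 library left out. Ddc, which encodes aromatic amino acid decarboxylase, fell with sORF7 (-0.14 ± 0.04, edgeR adjusted p = 0.0191), and its call ended without sORF7 replicate 3 (0.0997) or control replicate 1 (0.0884).

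**Figure D4:**
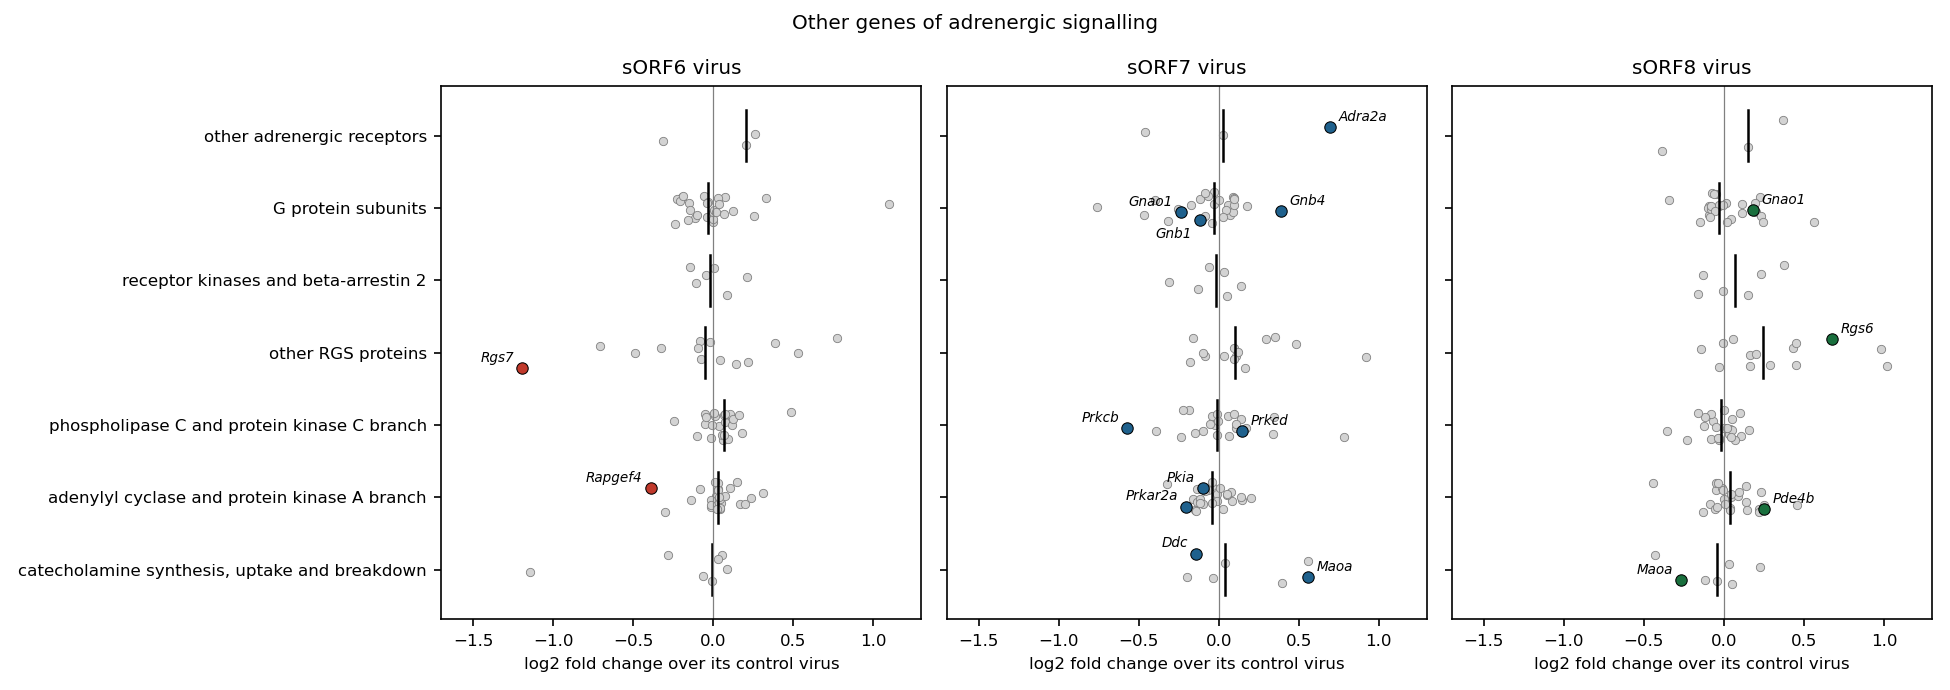
Log2 fold change over the own control virus (horizontal axis) of the 108 other genes of adrenergic signalling that were tested, by list and sORF virus. Coloured, named points have an edgeR adjusted p under 0.05, grey points do not, and vertical bars are list medians. Of the 108, 2 are coloured for sORF6, 10 for sORF7 and 4 for sORF8.

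Of 27 G protein subunits, Gnb4, a beta subunit gene, rose with sORF7 (0.39 ± 0.10, edgeR adjusted p = 0.0203). Gnao1, the Go alpha subunit gene, fell with sORF7 (-0.24 ± 0.04, edgeR adjusted p = 0.00076), and rose with sORF8, at 327 ± 4.06 normalised CPM against 289 ± 8.05 in the control (0.18 ± 0.04, 0.0125). Gnb1, another beta subunit gene, fell with sORF7 (-0.12 ± 0.03, edgeR adjusted p = 0.0424). With 1 library left out, the sORF7 call of Gnao1 held in all 6 fits, and the others did not. Gnb4 lost its call without sORF7 replicate 1 or 2 or control replicate 2 (edgeR adjusted p up to 0.0925), and Gnb1 in all fits but that without sORF7 replicate 3 (up to 0.158). Gnao1 lost its sORF8 call without sORF8 replicate 1 or 2 or control replicate 1 (up to 0.0761). With limma on log2(FPKM + 1), Gnao1 had an adjusted p of 0.0596 for sORF7 and 0.236 for sORF8, and Gnb1 one of 0.458.

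Of 14 other RGS genes tested, Rgs7 fell with sORF6, at 0.775 ± 0.187 normalised CPM against 1.78 ± 0.102 in the control (-1.19 ± 0.28, edgeR adjusted p = 0.0168). Rgs6 rose with sORF8, at 8.06 ± 0.689 against 5.05 ± 0.711 (0.67 ± 0.15, edgeR adjusted p = 0.0124). Both belong to the R7 family, which acts on Gi and Go. The call of Rgs7 ended in 3 of 6 fits with 1 library left out (sORF6 replicates 2 and 3 and control replicate 1, edgeR adjusted p up to 0.0871). That of Rgs6 ended in 2 (sORF8 replicate 3, 0.0557, and control replicate 1, 0.0754).

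Downstream, 24 genes of the phospholipase C and protein kinase C branch and 27 of the adenylyl cyclase and protein kinase A branch were tested. In the first, Prkcd rose (0.15 ± 0.04, edgeR adjusted p = 0.0468) and Prkcb fell (-0.57 ± 0.14, 0.0164) with sORF7, both genes of protein kinase C isoforms. In the second, Prkar2a, a regulatory subunit of protein kinase A (-0.20 ± 0.03, edgeR adjusted p = 0.000988), and Pkia, its inhibitor (-0.10 ± 0.03, 0.048), fell with sORF7. Rapgef4, the gene of the cyclic AMP sensor EPAC2, fell with sORF6 (-0.39 ± 0.09, edgeR adjusted p = 0.0203), and Pde4b, a cyclic AMP phosphodiesterase gene, rose with sORF8 (0.25 ± 0.06, 0.0319). With 1 library left out, Prkar2a kept its call in 6 of 6 fits. Pde4b lost it without sORF8 replicate 2 or control replicate 2 or 3 (edgeR adjusted p up to 0.184), and Prkcb without sORF7 replicate 1 or 3 or control replicate 1 or 2 (up to 0.0818). Rapgef4 lost it in all fits but that without control replicate 2 (up to 0.123), and Prkcd and Pkia in all 6 (up to 0.155 and 0.217). With limma on log2(FPKM + 1), the calls of Prkar2a (adjusted p = 0.156), Pkia (0.445), Pde4b (0.0677) and, among the enzymes above, Ddc (0.438) ended.

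Genes whose log2 CPM over the 18 libraries ran most like each member's were picked by Pearson's r, a description in which the libraries share experiments and viruses. For Rgs2 they were Prnp (r = 0.987), Cdc42se1 (0.987) and Lgals3 (0.984), and for Adrb1 they were P4ha2 (0.961), Rab32 (0.951) and Htra1 (0.943). Adra1d was nearest to Asf1a (0.959), Etfbkmt (0.957) and Ggh (0.946), and Adra1a to Thbs1 (0.962), Ubr3 (0.959) and Cpeb4 (0.954). Arrb1 was nearest to Mon2 (0.951), Ralgps1 (0.915) and Usp9x (0.913). Values were lower for Gnaq (Borcs7 0.853, Pcdh19 0.845, Ubxn2b 0.84), Adra1b (Usp6nl 0.838, Tbl3 0.837, Tmco1 0.831) and Rgs4 (Pmaip1 0.826, Cox11 0.812, Uri1 0.809).

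Among the members themselves, the pair with the highest r over 18 libraries was Adra1d and Adrb1 (0.878). After subtraction of each group's mean, their r was 0.182, so the likeness lay between groups rather than between libraries of a group. Adra1a and Arrb1 had an r of 0.84 over 18 libraries and 0.651 after subtraction of group means. For Adra1d and Rgs2 these values were 0.8 and 0.444, and for Gnaq and Arrb1 0.738 and 0.434. Other pairs were negative on both scales, such as Adra1d and Gnaq (-0.599 and -0.611) and Adrb1 and Gnaq (-0.683 and -0.237). Some changed sign, such as Adra1a and Adra1b (0.561 and -0.511) and Rgs2 and Rgs4 (0.509 and -0.556).

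Markers of other cell types moved beside some of these results, and their part in them was not tested. The summed FPKM of 8 smooth muscle and pericyte genes ran from 1290 to 1392 with sORF6 and from 1449 to 1493 in its control. It ran from 1608 to 1676 with sORF7 and from 1452 to 1592 in its control, the same directions as Adra1d and Adrb1. With sORF8 it ran from 1233 to 1299, against 1111 to 1160 in its control, where neither receptor passed. Acta2, a smooth muscle actin gene that immature cardiomyocytes also use, made up most of that sum (817.77 to 1333.68 FPKM). Myh11, the smooth muscle myosin gene, ran from 9.7 to 15.72 FPKM and Rgs5, a pericyte marker, from 0.55 to 2.74. Rgs5 had log2 fold changes of 0.53, 0.30 and 1.02 with sORF6, sORF7 and sORF8 (edgeR adjusted p = 0.631, 0.771 and 0.242). The median log2 fold change of the list was -0.01, 0.06 and 0.07 in that order. In each comparison 1 of the 8 genes was called: Acta2 lower with sORF6, Abcc9 higher with sORF7 and Acta2 higher with sORF8.

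Cardiomyocyte markers also moved. The summed FPKM of 10 genes ran from 28270 to 28980 with sORF6 and from 26210 to 29980 in its control, with 1 gene higher and 1 lower. It ran from 24930 to 25360 with sORF7 and from 26610 to 28950 in its control, with 0 higher and 3 lower. With sORF8 it ran from 21040 to 21200, against 18140 to 18340 in its control, with 5 higher and 0 lower, opposite in sign to Rgs2. Actc1 was the largest part of that sum (10091.22 to 16689.35 FPKM over the 18 libraries). Beside the counts of markers called in all these lists, 3.85%, 7.77% and 3.75% of all genes were called with sORF6, sORF7 and sORF8. Of 8 fibroblast genes, 1 rose and 1 fell with sORF6 (summed FPKM 1685 to 1782, against 1539 to 1676 in its control) and 3 fell with sORF7 (1495 to 1574, against 1543 to 1697). Of 6 leukocyte genes, 2 fell with sORF6 (summed FPKM 56.65 to 62.86, against 58.14 to 68.51 in its control) and 2 with sORF7 (44.24 to 48.35, against 46.34 to 54.31). Endothelial genes summed to at most 12.45 FPKM in any library and 0 of 6 were called. Of 7 Schwann and neuronal genes 4 were tested, and Th and Sox10 were listed at 0 in 12 and 1 libraries. Of the 4, Uchl1 fell with sORF8, where the list summed to 64.19 to 76.02 FPKM, against 80.47 to 84.13 in its control. Uchl1 alone ran from 37.1 to 72.9 FPKM over the 18 libraries.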

How the data were processed

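RNA from 18 libraries was sequenced on BGIseq, per the labels' protocols. The authors deposited estimated counts, FPKM, log2 fold changes and q-values for 19880 genes in 1 table. The submitters' processing notes name HISAT2 2.0.4, RSEM 1.2.12, DESeq2 1.4.5 and build Rnor_6.0 without roles, and the q-value columns the authors deposited are headed degseq, per the file headers. The labels used here do not state whether strand was used in counting. The deposited FPKM were used for levels between genes, and the authors' log2 fold changes and q-values only where their table is named.

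Estimated counts were rounded and tested with edgeR 4.0.16 (R 4.3.3, limma 3.58.1): filterByExpr over 6 groups, TMM scaling, quasi-likelihood F tests with 1 mean per group over 18 libraries (12 residual degrees of freedom, common biological coefficient of variation 6.9%), two-sided, Benjamini-Hochberg over 14870 genes, called at an adjusted p under 0.05. Depth was 15697177 to 17658137 counts per library. The fits were tested on simulated counts first. Alternatives were other scalings and filters, DESeq2 1.42.0, limma on log2(FPKM + 1) and log2(FPKM + 0.1), a replicate block, only the libraries compared, and each library left out. No library pair was identical.

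Members and gene lists were chosen with earlier results of these data known. From the pathway lists, up to 6 called genes per direction and comparison with the smallest adjusted p are named, and for each member the 3 genes most like it among those with mean log2 CPM not under 3. Grk2, Plcb4 and the values of Gna11, and the marker genes given with values, were added after their values were seen.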

Additional observations from a re-analysis of the deposited data

Results flagged for a closer look

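These results were picked out because a test of the difference between 2 viruses' log2 fold changes passed (edgeR adjusted p under 0.05), each virus being compared with its own control virus. No explanation was weighed.

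Among the receptors and regulators, sORF6 minus sORF7 gave -1.21 for Adra1d, -0.72 for Adrb1 and -0.57 for Rgs2. For sORF6 minus sORF8, Adrb1 gave -0.42, a call that ended with DESeq2 and in 7 of 12 fits with 1 library left out. For sORF7 minus sORF8, Adra1d gave 0.73, which ended in 7 of 12 such fits, and Rgs2 gave 0.76.

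Of the 108 other pathway genes tested, 9 passed with a positive and 7 with a negative value of sORF6 minus sORF7. The share of all genes that passed was 11.2%. Named here are the 6 with the smallest adjusted p in each direction. The difference was positive for Ddc (0.22), Pkia (0.17), Gnao1 (0.23), Prkcb (0.75), Prkar2a (0.19) and Pde3a (0.28). It was negative for Maoa (-0.62), Rapgef4 (-0.59), Gnb4 (-0.63), Adra2a (-1.01), Rgs7 (-1.54) and Maob (-1.71). Pde3a lost its call in 6 and Maob in 10 of 12 fits with 1 library left out, and Prkar2a lost it without sORF6 replicate 1. With limma on log2(FPKM + 1), the differences of Gnao1 (adjusted p = 0.192), Prkar2a (0.558), Pde3a (0.25), Pkia (0.162) and Ddc (0.214) did not pass. Prkar2a (edgeR adjusted p = 0.0549) and Maob (0.0897) also lost the call with a replicate block, and Prkar2a (0.0625) and Pde3a (0.0588) in a fit of only the groups compared. Maob, a monoamine oxidase gene, passed neither with sORF6 nor with sORF7 alone. It was low, at 0.1 to 0.83 FPKM over the 18 libraries. Its difference ran from -1.76 to -0.484 over the alternatives other than leaving 1 library out.

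For sORF6 minus sORF8, Rgs7 gave -2.17 and Rapgef4 -0.62, and both held in the 12 fits with 1 library left out. Rgs7 was low, at 0.26 to 1.3 FPKM over the 18 libraries. Its difference ran from -2.2 to -0.774 over the alternatives other than leaving 1 library out. For sORF7 minus sORF8, Maoa gave 0.82, Prkcd 0.27 and Gnb4 0.53. Negative values were those of Gnao1 (-0.42), Rgs6 (-0.85), Prkar2a (-0.19), Ddc (-0.19), Prkaca (-0.22) and Akap7 (-0.78). Of these, Maoa, Prkcd, Gnao1 and Rgs6 held in the 12 fits, and the others lost the call in 5 to 7 of them. With limma on log2(FPKM + 1), Prkar2a (adjusted p = 0.251), Ddc (0.549) and Prkaca (0.0934) did not pass. With a replicate block, Gnb4 (edgeR adjusted p = 0.0559), Prkar2a (0.0632), Akap7 (0.0713) and Ddc (0.0601) did not, nor did Akap7 in a fit of only the groups compared (0.0561).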

How the results depend on the processing

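Calls of Adrb1 with sORF6 and sORF7, of Rgs2 with sORF7 and sORF8, and of Adra1d, Adrb1 and Rgs2 between sORF6 and sORF7 held under all alternatives run. The Adra1d call with sORF6 did not, and the cause was not tested. The count of members called with sORF6 was 1 in a fit of only the 6 libraries, with the replicate block, and at its lowest with 1 library left out (highest 2). With sORF7 it was 2 to 3 with 1 library left out.

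Genes called in a fit of only the groups compared were 318 with sORF6 (main 572) and 627 with sORF7 (main 1156), and limma on log2(FPKM + 0.1) called 366 with sORF8 (main 558). The highest counts over the alternatives other than leaving 1 library out were 582, 1181 and 815 with sORF6, sORF7 and sORF8. Why counts differed from the main fit was not tested. With 1 library left out the counts ran from 368 (without sORF6 replicate 1) to 529 with sORF6, from 680 (without sORF7 replicate 1) to 955 with sORF7, and from 265 (without sORF8 replicate 2) to 387 with sORF8. Counts of pathway genes called, with alternatives added after seeing the data, were 0 with sORF6 and 4 with sORF7 in a fit of only the groups compared. They were 5 with sORF7 under limma at either pseudocount, and 2 with sORF8 under limma without a filter. At their highest under such alternatives they were 2, 13 and 5 with sORF6, sORF7 and sORF8. With 1 library left out they ran from 0 to 2, from 5 to 9 and from 2 to 3.

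Whether same replicate numbers pair these libraries could not be settled from 3 libraries per group. Of same-numbered pairs, 3 of 9 had deviations that correlated over 0.1 (range -0.11 to 0.251). Of the sORF libraries, 4 of 9 correlated best with their own number. With a replicate block, 522, 1022 and 459 genes were called with sORF6, sORF7 and sORF8, and 5622 among the controls. Under the block the adjusted p was 0.0873 for Adra1d with sORF6, 0.0513 for Adrb1 between sORF6 and sORF8, and 0.0704 for Adra1d between sORF7 and sORF8, and no other member's call changed.

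With 1 library left out, these log2 values changed sign without passing in any such fit. Adra1a ran from -0.0066 to 0.157 with sORF6, -0.161 to 0.0974 with sORF7, -0.0038 to 0.255 between sORF6 and sORF7, -0.0952 to 0.0679 between sORF6 and sORF8, and -0.25 to 0.0128 between sORF7 and sORF8. Adra1b ran from -0.018 to 0.109 with sORF7, and Arrb1 from -0.064 to 0.0494 between sORF6 and sORF8. With sORF8, Adrb1 ran from -0.0127 to 0.0903, Rgs4 from -0.0216 to 0.11 and Gnaq from -0.0464 to 0.186.

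Counts per library were lowest for Adra1d (41 to 176) and Rgs4 (118 to 207), which limits the precision of their values.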
